A study of Rattus norvegicus with 12 samples.

Results

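Heat shock proteins, their J-domain (DnaJ) partners, the BAG and HspBP1 exchange factors and the heat shock factors HSF1 and HSF2 were followed in the rat cerebral cortex after embolic stroke. Members were chosen by gene symbol alone (Hspa, Hspb, Hspd, Hspe, Hsph and Hsp90 genes, Dnaja, Dnajb and Dnajc genes, Bag genes, Hspbp1, Hsf1 and Hsf2), and the rule found 78 of the 17268 genes in the count table. Of these, 70 passed the filter on low counts over all 12 libraries. The other 8 (Dnajb7, Dnajb8, Dnajc22, Dnajc5b, Dnajc5g, Hspb3, Hspb7 and Hspb9) held 0 to 25 counts in a library, and Dnajb8 and Dnajc5g were at 0 in every library. Hspa1a and Hspa1b, the classical stress-inducible HSP70 genes, were not analysed here.

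Poly-A RNA from the cortex of male Sprague Dawley rats was sequenced in 4 groups of 3 libraries, each taken to be 1 animal. Sham animals had the operation without a clot. Model rats had a clot injected so as to block the middle cerebral artery. rt-PA rats had the same stroke and received recombinant tissue plasminogen activator, the drug that dissolves clots, at 6 h, which is late for this drug. rt-PA+Acu rats had the stroke, acupuncture at the points Shuigou (GV26) and Neiguan (PC6) at 2 h, and rt-PA at 6 h. No group here received acupuncture alone, and no time of tissue collection is given for the sequenced cortex. Total counts ran from 11678450 to 13616935 per library, and 3 counts stood for 0.208 to 0.262 CPM. CPM are counts brought to a common library size, scaled here with TMM factors, which correct for differences in RNA composition between libraries.

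Chaperones keep proteins folded. HSP70 binds exposed stretches of a client protein in a cycle that J-domain proteins start and exchange factors (BAG proteins, HspBP1, the HSP110 family) end, HSP90 finishes the folding of many kinases and receptors, small heat shock proteins hold unfolding proteins until they can be refolded, and HSP60 with HSP10 forms the folding chamber of mitochondria. In the cytosol these genes are switched on by HSF1, which binds heat shock elements made of inverted GAA units. In the endoplasmic reticulum (ER), a separate set led by Hspa5 is switched on by the unfolded protein response through the ER stress element. Both programmes are known to respond to ischemia in the brain.

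The promoters of 10 members are shown because their letters are set beside their values by library further on, and the 10 were picked with these values known. Promoter windows of 300 bases (250 before the start and 50 after it) came from RefSeq on build GRCr8, were matched by symbol for 63 of the 78 members, and are printed on the strand of the gene. Capitals mark the motif letters. The first 5 are the members with a heat shock element of 3 units (GAANNTTCNNGAA or TTCNNGAANNTTC). Hspd1 and Hspe1 are neighbours transcribed in opposite directions, so their windows share 211 bases and the same element.
Hsph1 (chr12:10427307-10427369, + strand): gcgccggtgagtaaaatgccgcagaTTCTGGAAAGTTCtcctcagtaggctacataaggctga
Dnaja1 (chr5:60638388-60638450, + strand): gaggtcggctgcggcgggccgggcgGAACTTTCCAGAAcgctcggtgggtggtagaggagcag
Hspa8 (chr8:50080276-50080338, + strand): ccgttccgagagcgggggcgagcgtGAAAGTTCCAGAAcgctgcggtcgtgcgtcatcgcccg
Hspd1 (chr9:64084237-64084287, - strand): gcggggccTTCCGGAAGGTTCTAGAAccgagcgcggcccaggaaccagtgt
Hspe1 (chr9:64084237-64084304, + strand): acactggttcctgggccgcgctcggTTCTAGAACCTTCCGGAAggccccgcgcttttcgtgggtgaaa
Hspb1 and Bag3 held the shorter element of 2 units (GAANNTTC or TTCNNGAA), and Hspb1 held it at 2 places.
Hspb1 (chr12:26432398-26432455, - strand): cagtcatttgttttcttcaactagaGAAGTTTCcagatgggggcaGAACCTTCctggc
Bag3 (chr1:192533303-192533360, + strand): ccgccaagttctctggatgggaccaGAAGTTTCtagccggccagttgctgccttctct
The ER stress element (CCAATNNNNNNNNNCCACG, or CGTGGNNNNNNNNNATTGG on the other strand) was found in 3 members, which are all ER chaperones.
Hspa5 (chr3:38452948-38453016, + strand): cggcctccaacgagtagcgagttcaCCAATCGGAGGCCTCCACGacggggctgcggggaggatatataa
Hsp90b1 (chr7:23012426-23012494, - strand): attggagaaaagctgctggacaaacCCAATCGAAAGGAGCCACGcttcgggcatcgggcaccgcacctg
Dnajc3 (chr15:102432509-102432577, + strand): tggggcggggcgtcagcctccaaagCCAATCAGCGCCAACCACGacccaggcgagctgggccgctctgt

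Counted over both strands, the element of 3 units was in 5 of 63 members (7.94%) and in 0.794% of 27457 genes with a promoter window. The ER stress element was in 3 of 63 members (4.76%) and in 0.0765% of genes. The element of 2 units, which every element of 3 units contains, was in 17 of 63 members (27.0%) and in 16.7% of genes. These are matches of letters, and factor binding was not measured.

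One library, rt-PA+Acu replicate 3, gave the highest chi-square against the others of its group and is given separately throughout. Per gene, the chi-square between replicates of rt-PA+Acu was 20.0 between replicates 1 and 2, but 51.1 and 36.1 between replicate 3 and these. The other groups gave 8.73 to 35.6. Model replicate 3 also stood apart in its group (35.6 and 20.4, beside 12.6 between replicates 1 and 2), and rt-PA replicates 1 and 2 gave 34.7. Markers of the cell types that the cortex holds were present (neurons, summed over 6 genes, 3778 to 6242 CPM; astrocytes, 5 genes, 2943 to 6522 CPM). Markers of monocytes and macrophages, summed over 5 genes, lay at 49.8 to 62.8 CPM in Sham, 156 to 228 CPM in Model, 211 to 414 CPM in rt-PA and 25.6 to 42.0 CPM in rt-PA+Acu. Markers of oligodendrocytes, 5 genes, varied from 1464 to 18329 CPM between libraries. In cortex tissue, fewer cells of a type and less RNA per cell cannot be told apart. Near-identical copies, which the HSP70, HSP90, Hspd1 and Hspe1 genes have in the genome, could have shared reads in the counting, and whether the counting used strand is not given in the sources used here, so single values of these genes are uncertain to that extent.

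Model vs Sham asked what embolic stroke did to the chaperone genes. After stroke, the small heat shock protein genes Hspb1 and Hspb8, 6 of the 8 ER chaperones, mitochondrial HSP70 with HSP60 and HSP10, and the inducible HSP90 gene Hsp90aa1 were higher, while 8 members were lower. The quasi-likelihood test of edgeR, adjusted by Benjamini-Hochberg over 12884 genes, called 29 of 70 members higher (27.3% of all genes tested were called higher) and 8 lower (26.6% of all genes), and left 33 uncalled. The median log2 fold change of the members was 0.25, beside 0.01 over all genes tested. With a change of over 2-fold as well, 10 members were differentially expressed genes (DEGs), and 21.5% of all genes were. Model replicate 3 was closer to Sham in its oligodendrocyte markers than the other Model libraries (7318 CPM, beside 1464 and 3373 CPM). Its monocyte and macrophage markers were farther from Sham (228 CPM, beside 198 and 156 CPM, with 49.8 to 62.8 CPM in Sham). So were its endothelial markers (342 CPM, beside 189 and 176 CPM, with 219 to 243 CPM in Sham). Without this library 33 members were higher and 10 lower, and the part of these markers was not tested. The map of members by library shows these groups.

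**Figure D1:**
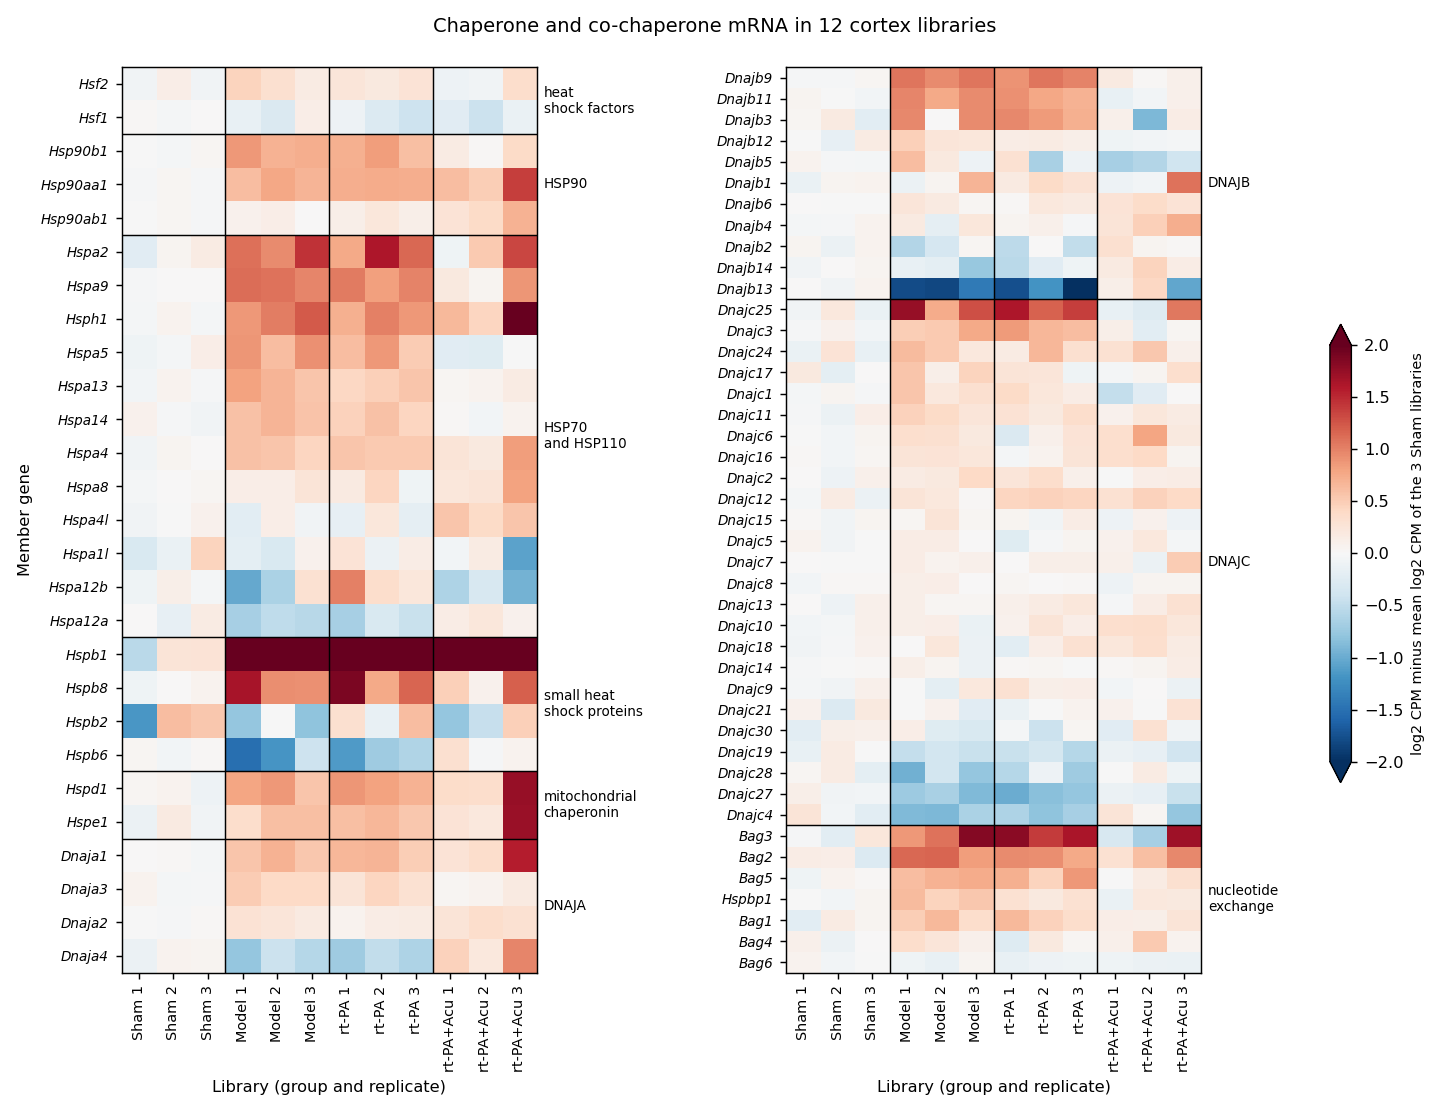
Columns are the 12 libraries and rows the 70 members that passed the filter, ordered by class and, within a class, by their mean in Model. Colour is log2 CPM minus the mean log2 CPM of the 3 Sham libraries, cut at -2 and 2. Model and rt-PA libraries share their pattern, rt-PA+Acu replicates 1 and 2 are paler in most rows, and rt-PA+Acu replicate 3 is darkest in Hsph1, Hspd1, Hspe1, Dnaja1 and Hsp90aa1.

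Hspb1 encodes HSP27, a small heat shock protein that holds unfolding proteins and stabilises actin. It read 4.35, 7.57 and 7.60 CPM in the Sham libraries (54, 99 and 87 counts) and 280, 282 and 321 CPM in the Model libraries (3667, 3335 and 3889 counts). Every Model library was far above every Sham library, with a 45.5-fold higher mean (log2 fold change 5.51 ± 0.20 SE, n = 3 per group, adjusted p = 3.41e-06). It was the largest rise among the members and ranked 58 of 12884 genes. Hspb8, which works with Bag3 to send misfolded proteins to autophagy, was at 22.5, 24.1 and 25.1 CPM in Sham and 74.6, 45.6 and 45.2 CPM in Model (log2 fold change 1.22 ± 0.20, adjusted p = 0.00135). Its groups did not overlap, and Model replicate 1 was the highest. Hspb6 (HSP20) went the other way, from 25.5 to 27.0 CPM in Sham to 9.31 to 19.8 CPM in Model (log2 fold change -0.95 ± 0.25, adjusted p = 0.0127). The Hspb6 call was lost without Model replicate 2. Hspb2, with 0.644 to 2.22 CPM in Sham, was not called (log2 fold change -0.67 ± 0.53).

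Of the 12 HSP70 and HSP110 genes, 7 rose (27.3% of all genes did) and 1 fell (26.6% of all genes). Hspa9, the HSP70 of the mitochondrial matrix, was at 280, 286 and 286 CPM in Sham and 620, 600 and 557 CPM in Model (log2 fold change 1.07 ± 0.08, adjusted p = 3.33e-05). Hsph1, the inducible HSP110 that releases nucleotide from HSP70 and helps to dissolve aggregates, was at 411, 441 and 412 CPM in Sham and 767, 854 and 985 CPM in Model (log2 fold change 1.05 ± 0.10, adjusted p = 0.000107). Neither gene's groups came near each other. Hspa2, an HSP70 best known from sperm development, was at 18.4 to 24 CPM in Sham and 41.3 to 58.6 CPM in Model (log2 fold change 1.18 ± 0.16, adjusted p = 0.000495). Hspa5, Hspa13, Hspa14 and the HSP110 gene Hspa4 rose by 0.53 to 0.81 on the log2 scale. Hspa12a, a distant HSP70 relative abundant in brain, fell from 298 to 373 CPM in Sham to 210 to 236 CPM in Model (log2 fold change -0.58 ± 0.10, adjusted p = 0.00185). Hspa8, the constitutive HSP70, was at 2128, 2179 and 2227 CPM in Sham and 2384, 2388 and 2597 CPM in Model. Its groups did not overlap, but the difference of 0.18 ± 0.08 on the log2 scale was not called (adjusted p = 0.0822).

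Among the HSP90 genes the inducible and the constitutive cytosolic form differed in their calls. Hsp90aa1, the inducible form, was at 1524, 1602 and 1531 CPM in Sham and 2383, 2658 and 2490 CPM in Model (log2 fold change 0.70 ± 0.08, adjusted p = 0.000217). Hsp90ab1, the constitutive form, was at 1628 to 1704 CPM and 1660 to 1813 CPM, groups that overlapped (log2 fold change 0.08 ± 0.08, adjusted p = 0.4). Whether the 2 changes differ was not tested. HSP60 (Hspd1) was at 237, 241 and 214 CPM in Sham and 399, 421 and 338 CPM in Model (log2 fold change 0.75 ± 0.10, adjusted p = 0.00055). Its partner HSP10 (Hspe1) was at 50.9, 62.5 and 52.6 CPM and 70.3, 83.7 and 83.9 CPM (log2 fold change 0.53 ± 0.11, adjusted p = 0.00512). The groups did not overlap for either gene, but in 1 fit over all 12 libraries neither was called (adjusted p = 0.0537 and 0.195). The heat shock factor genes gave small differences. Hsf1 was at 33.6 to 35.0 CPM in Sham and 28.2 to 38.0 CPM in Model (log2 fold change -0.08 ± 0.13, adjusted p = 0.62). Hsf2 was just past the threshold (39.2 to 45.3 and 46.0 to 56.0 CPM, log2 fold change 0.32 ± 0.11, adjusted p = 0.0425), a call that only 5 of 13 alternative fits and left-out libraries kept.

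Of the 8 ER chaperones on the list, 6 rose (27.3% of all genes did) and 0 fell (26.6% of all genes). All 8 had a positive log2 fold change, with a median of 0.73. Their summed level was 1389 to 1493 CPM in the Sham libraries and 2182 to 2472 CPM in the Model libraries. Hspa5 encodes BiP, the ER's HSP70 and the sensor-bound chaperone of the unfolded protein response. It was at 444, 455 and 513 CPM in Sham and 862, 724 and 885 CPM in Model (log2 fold change 0.81 ± 0.11, adjusted p = 0.000391). Hsp90b1 (GRP94, the ER's HSP90) was at 501, 486 and 517 CPM and 919, 810 and 833 CPM (log2 fold change 0.78 ± 0.08, adjusted p = 0.000175). No Model library came within the Sham range for either gene. Dnajb9 (ERdj4, a J-domain partner of BiP) rose from 53.2, 53.3 and 55.5 CPM to 113, 104 and 113 CPM, a log2 fold change of 1.03 ± 0.08 (adjusted p = 4.66e-05). Dnajb11 (ERdj3) rose by 0.90 ± 0.09 (adjusted p = 0.00015) and Dnajc3, which inhibits the stress kinase PERK, by 0.60 ± 0.12 (adjusted p = 0.00359). The 2 members of the list that were not called were Dnajc10, an ER disulfide reductase (log2 fold change 0.05 ± 0.10), and the ER membrane protein Dnajc1 (0.37 ± 0.14, adjusted p = 0.0582).

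J-domain genes outside the ER were mixed. Dnaja1, a main cytosolic partner of HSP70, rose from 289 to 302 CPM to 429 to 479 CPM (log2 fold change 0.60 ± 0.08, adjusted p = 0.000418), a call also lost in 1 fit over all 12 libraries. Dnaja2 and Dnaja3 rose by 0.24 and 0.44. The Dnaja2 call was lost when any 1 Sham library was left out, without Model replicate 1 or 2, and with the replicate block. Dnaja4 fell from 79.0, 90.0 and 89.4 CPM to 50.2, 63.7 and 58.2 CPM (log2 fold change -0.58 ± 0.11, adjusted p = 0.00263). It was thus the 1 DNAJA gene of 4 that fell. Dnajb13, a protein of sperm tails and motile cilia, fell from 6.60, 6.27 and 6.90 CPM to 1.91, 1.86 and 2.48 CPM (log2 fold change -1.65 ± 0.24, adjusted p = 0.000761). It was the only member that was a DEG in the lower direction. Dnajc25 was at 3.32 to 4.20 CPM in Sham and 6.10 to 12.1 CPM in Model (log2 fold change 1.31 ± 0.29, adjusted p = 0.00541). Dnajc6, the auxilin that uncoats clathrin vesicles in nerve endings, rose by 0.29 ± 0.08 (adjusted p = 0.0149). Its call was lost in 1 fit over all 12 libraries and without Sham replicate 1 or 2 or Model replicate 2. Dnajc27 (a Rab-like GTPase with a J domain), Dnajc4, Dnajc19 (of the mitochondrial import motor) and Dnajc28 fell by 0.43 to 0.80. Dnajb1, the stress-inducible HSP40, was at 57.9, 65.8 and 66.9 CPM in Sham and 58.2, 65.7 and 102 CPM in Model. Only Model replicate 3 exceeded the Sham range, and the gene was not called (log2 fold change 0.25 ± 0.19, adjusted p = 0.302).

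Exchange factors were higher in 5 of 7 cases (27.3% of all genes were) and lower in 0 (26.6% of all genes). Bag3, the HSP70 exchange factor of stress-induced autophagy, was at 14.8, 13.1 and 17.8 CPM in Sham and 27.5, 32.2 and 54.0 CPM in Model (log2 fold change 1.32 ± 0.25, adjusted p = 0.00284). Bag2, which holds back the ubiquitin ligase CHIP, was at 9.10, 9.02 and 6.81 CPM and 18.3, 18.5 and 14.7 CPM (log2 fold change 1.05 ± 0.18, adjusted p = 0.00178). For both genes every Model library exceeded every Sham library, with Model replicate 3 highest for Bag3 and lowest for Bag2. Bag1, Bag5 and Hspbp1 rose by 0.50 to 0.69 on the log2 scale, and Bag4 and Bag6 were not called.

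Chaperones and cochaperones that the symbol rule leaves out were counted on a list of 35 genes, of which 34 were in the table. In Model vs Sham 21 of these rose (27.3% of all genes did) and 1 fell (26.6% of all genes), which was Sil1, the exchange factor of BiP. Those that rose included all 8 subunits of the cytosolic chaperonin (Tcp1 and Cct2 to Cct8), the alpha-B crystallin gene Cryab (log2 fold change 1.59 ± 0.20, adjusted p = 0.000324) and the collagen chaperone Serpinh1 (1.09 ± 0.15, adjusted p = 0.0006). The list for HSF1 targets, with 14 of 16 genes in the table, had 8 higher and 1 lower and a median of 0.56. The list for mitochondrial chaperones had 5 of 9 higher and 2 lower. Of the 6 neuronal and synaptic genes, 1 rose (Dnajc6) and 1 fell (Hspa12a). Monocyte and macrophage markers were higher in Model (4 of 4 tested) and microglial markers lower (4 of 4). Oligodendrocyte markers were lower in 4 of 5, astrocyte markers lower in 4 of 5 and higher in 1, and neuronal markers lower in 3 of 6 and higher in 1. Their part in the chaperone changes was not tested.

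rt-PA vs Model asked what the late drug added. Of 71 members tested, edgeR's quasi-likelihood test called 0, as it did 0% of all genes. DESeq2 also called 0 members, and its count over all genes is not given here. At an unadjusted p under 0.05 there were 3 members of 71, beside 9.92% of all genes. Log2 fold changes ran from -0.37 for Dnajb5 to 0.91 for Hspa12b, an HSP70 relative found mainly in endothelial cells, and the smallest adjusted p was 0.426. Hspb1 was at 230, 263 and 244 CPM in the rt-PA libraries, all below the 3 Model libraries (log2 fold change -0.26 ± 0.10, adjusted p = 0.451). Hspa5 was at 719, 856 and 670 CPM and Hsph1 at 685, 848 and 766 CPM, within or close to their Model ranges (log2 fold changes -0.14 ± 0.13 and -0.18 ± 0.13). Hspa12b was at 25.5, 16.2 and 14.9 CPM in rt-PA and 6.26, 8.21 and 15.8 CPM in Model, groups that overlapped (0.91 ± 0.37, adjusted p = 0.476). Endothelial markers, summed over 4 genes, lay at 322 to 417 CPM in rt-PA and 176 to 342 CPM in Model. These values do not show that the groups were equal, since 3 libraries a group leave standard errors of this size.

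**Figure D2:**
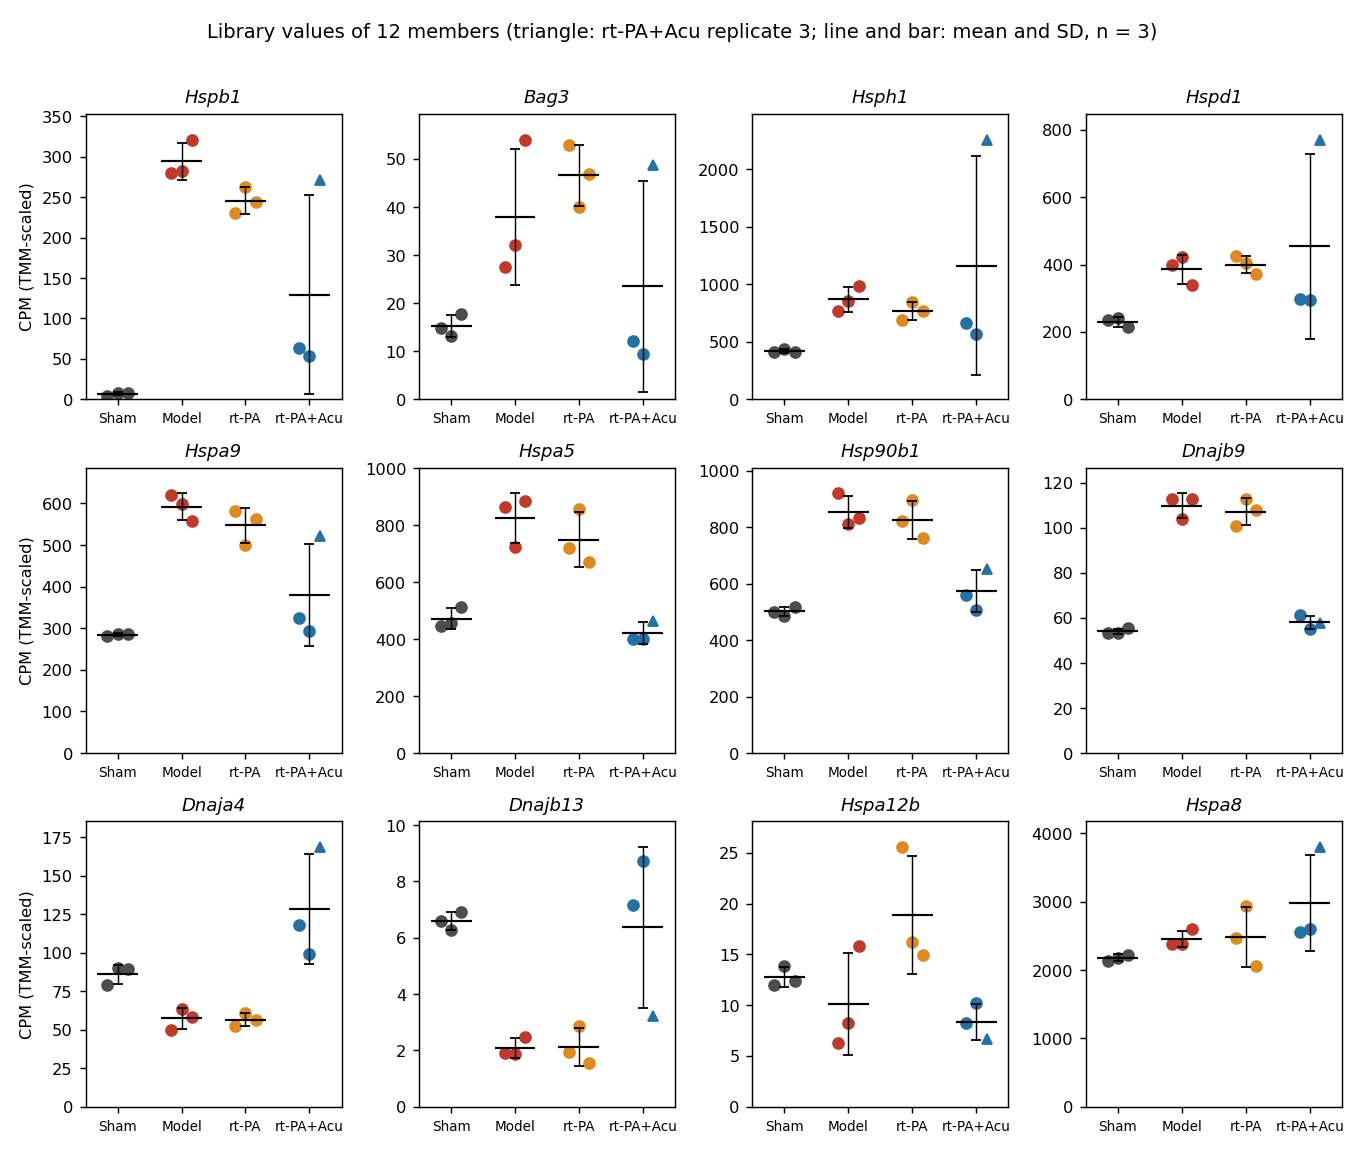
Each panel gives 1 member, with the 4 groups on the horizontal axis and TMM-scaled CPM from 0 on the vertical axis. Points are libraries, the triangle is rt-PA+Acu replicate 3, and the line and bar are the mean and SD of 3 libraries. Hspa5 and Dnajb9 lie near Sham in all 3 rt-PA+Acu libraries, and Hsp90b1 in replicate 3 lies between Sham and rt-PA. Hspb1, Bag3, Hsph1 and Hspd1 are highest in replicate 3 among the rt-PA+Acu libraries.

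rt-PA+Acu vs rt-PA asked what acupuncture before the drug added. The ER chaperones were lower with acupuncture, with a summed level of 1410 to 1626 CPM beside 1389 to 1493 CPM in Sham, and Dnajb13, Dnaja4, Dnajc27, Hspa12a and Hspb6, which stroke had lowered, were higher. The test called 8 of 70 members higher (17% of 12999 genes) and 9 lower (17.7% of genes), and 3 members were DEGs (15.3% of genes). The median log2 fold change was -0.01 for the members and -0.00 for all genes. Without rt-PA+Acu replicate 3, 8 of 71 members were higher (20.1% of genes) and 22 lower (21% of genes), with a median of -0.13. The higher calls then lost Dnajb4 and gained Dnajc4, and the lower calls gained 13 members, among them Hspb1, Bag3, Hspb8, Hspa2, Hspa9, Hspd1, Hspe1, Dnajb1 and Hsf2.

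Of the 8 ER chaperones, 6 fell (17.7% of all genes did) and 0 rose (17% of all genes), with a median log2 fold change of -0.62. Without replicate 3, 7 fell (21% of all genes did). The summed level of the list was 2170, 2405 and 2064 CPM in rt-PA and 1463, 1410 and 1626 CPM in rt-PA+Acu. Hspa5 was at 400, 399 and 465 CPM with acupuncture, all below the rt-PA libraries and, in replicates 1 and 2, below every Sham library (log2 fold change -0.83 ± 0.14, adjusted p = 0.00513). Dnajb9 fell from 101, 113 and 108 CPM to 61.2, 55.2 and 57.8 CPM (log2 fold change -0.88 ± 0.10, adjusted p = 0.00159). The 3 acupuncture libraries of Dnajb9 lay close together, replicate 3 included. Dnajb11 fell by 0.82 ± 0.11 (adjusted p = 0.00298) and Dnajc3 by 0.72 ± 0.14 (adjusted p = 0.00848). Hsp90b1 fell from 823, 895 and 761 CPM to 560, 508 and 653 CPM (log2 fold change -0.52 ± 0.14, adjusted p = 0.0227), a call that 8 of 13 alternatives kept. The ER's Hspa13 fell by 0.39 ± 0.10 (adjusted p = 0.0218), a call lost without rt-PA replicate 3 and without rt-PA+Acu replicate 1 or 2. Bag5, Hspa14 and Hspa12b were the members outside the ER list that fell. The Hspa12b call held in 13 of 13 alternatives. Those of Bag5 and Hspa14 were lost without rt-PA replicate 1 or 3 and without rt-PA+Acu replicate 1 or 2. The Hspa14 call was also lost without rt-PA replicate 2 and with the replicate block. Hspa12b was at 8.26, 10.2 and 6.64 CPM in rt-PA+Acu, below every rt-PA library (log2 fold change -1.17 ± 0.26, adjusted p = 0.0135). Endothelial markers were lower in the same comparison (4 of 4 tested, 142 to 168 CPM against 322 to 417 CPM), as were monocyte and macrophage markers (4 of 4). Their part in the chaperone values was not tested.

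Members that were higher with acupuncture were led by Dnajb13 and Dnaja4. Dnajb13 was at 1.94, 2.87 and 1.55 CPM in rt-PA and 7.16, 8.73 and 3.21 CPM in rt-PA+Acu (log2 fold change 1.58 ± 0.43, adjusted p = 0.0259), and replicate 3 was the lowest of its group. This call held in 9 of 13 alternatives and was lost without rt-PA replicate 1 or 3 and without rt-PA+Acu replicate 1 or 2 (log2 fold change 1.29 to 1.51, adjusted p 0.074 to 0.0952). Dnaja4 was at 52.3, 60.9 and 56.4 CPM in rt-PA and 118, 99.0 and 169 CPM in rt-PA+Acu (log2 fold change 1.19 ± 0.20, adjusted p = 0.00522). Here replicate 3 was the highest, and without it the difference was 0.95 ± 0.12 (adjusted p = 0.00212). Hspb6 rose by 0.93 ± 0.18 (adjusted p = 0.0083), Dnajc27 by 0.63 ± 0.12 (adjusted p = 0.00849) and Hspa12a by 0.62 ± 0.12 (adjusted p = 0.00856). Hspa4l, an HSP110, Dnajb14 and Dnajb4 rose by 0.45 to 0.54 without having been called in Model vs Sham. Each of these calls was lost without rt-PA replicate 1, among other alternatives. Neuronal markers were higher in 3 of 6 and astrocyte markers in 4 of 5 (17% of all genes were), and their part was not tested.

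The stroke comparison and the acupuncture comparison share no library, so their members can be set side by side. Of the 29 members that rose in Model vs Sham, 8 fell with acupuncture and 0 rose, and of the 8 that fell, 5 rose and 0 fell. These shares of 27.6% and 62.5% stood beside 51.9% of the 3507 genes that rose in Model vs Sham and 55.8% of the 3393 that fell. Without rt-PA+Acu replicate 3 the counts of members were 17 of 29 (58.6%) and 6 of 8 (75%), beside 61.5% and 64.2% of all such genes. Over the 70 members, log2 fold changes of the 2 comparisons had opposite signs in 47 (67.1%), and across genes Pearson's r was -0.60 and Spearman's rho was -0.62. Over all 12753 genes tested in both, 81.6% had opposite signs and these values were -0.83 and -0.81. Genes are not independent replicates, so these values describe the libraries and were not tested.

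**Figure D3:**
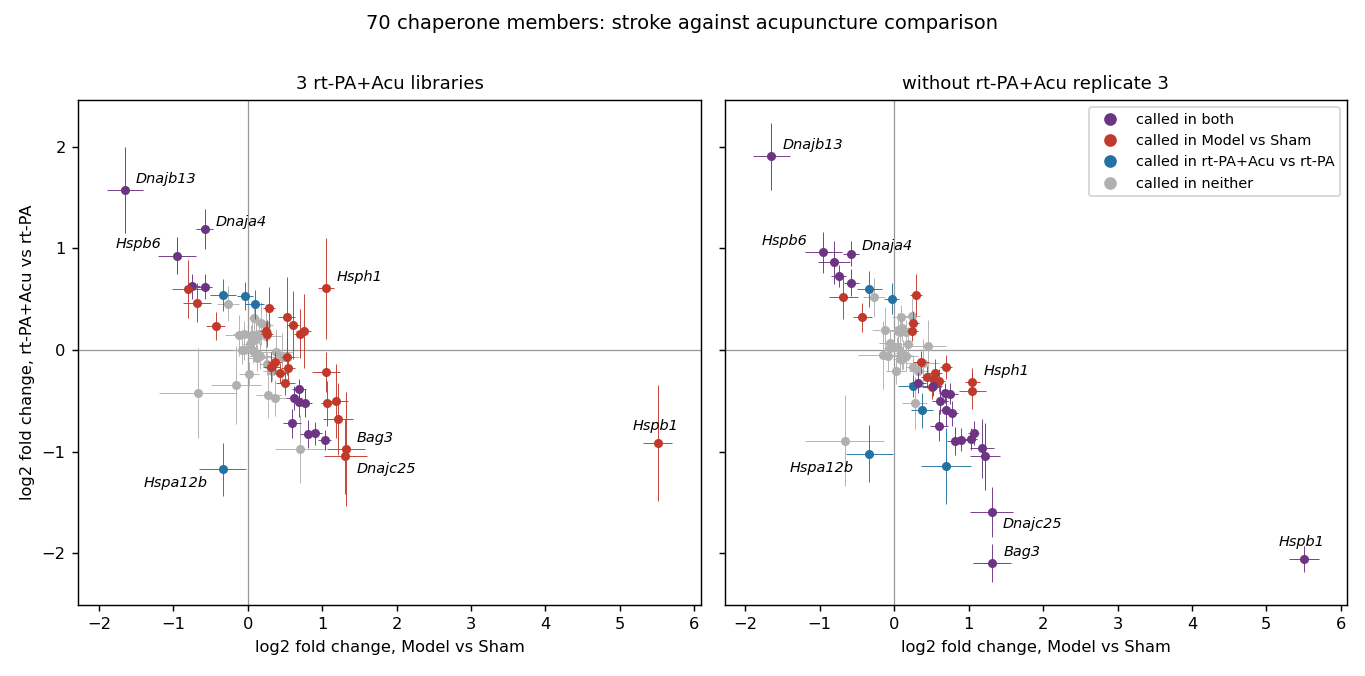
Each point is 1 of 70 members, with its log2 fold change in Model vs Sham on the horizontal axis and that of rt-PA+Acu vs rt-PA on the vertical axis, and bars of 1 SE. The left panel has all 3 rt-PA+Acu libraries and the right panel leaves out replicate 3, and colours mark the comparisons in which a member was called. Hspb1, Bag3 and Dnajc25 move down from left to right (Hspb1 from -0.92 to -2.06), and Hsph1 crosses 0.

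Among the 14 HSF1 target genes in the table, rt-PA+Acu replicate 3 was over 2-fold above the mean of replicates 1 and 2 in 7. Others moved less, such as Hsp90ab1 at 1.30 times and Hspa4l at 1.06 times this mean. Hspa4l was called higher than in rt-PA with and without replicate 3 (log2 fold change 0.53 and 0.51). This call was lost with the replicate block, without rt-PA replicate 1 or 3 and without rt-PA+Acu replicate 1. Hsph1 was at 659 and 568 CPM in replicates 1 and 2 and at 2257 CPM in replicate 3 (7820, 6503 and 30239 counts), which was the highest of all 12 libraries and 3.68 times the mean of the other 2. Its log2 fold change against rt-PA was 0.61 ± 0.49 with replicate 3 and -0.31 ± 0.14 without it (adjusted p = 0.370 and 0.111). Hspd1 was at 296 and 295 CPM and then 771 CPM, and Hspe1 at 66.7, 63.6 and 183 CPM. For both, the difference from rt-PA was positive and uncalled with replicate 3 (0.19 ± 0.36 and 0.33 ± 0.39) and negative and called without it (-0.43 ± 0.11, adjusted p = 0.0186, and -0.35 ± 0.10, adjusted p = 0.0299). Dnaja1 was at 356, 376 and 875 CPM, Hsp90aa1 at 2381, 2174 and 4056 CPM, and Dnajb1 at 59.4, 60.8 and 134 CPM. In each of these genes replicate 3 was the highest of the 12, above every stroke library.

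Hspb1 and Bag3 behaved differently from these, since replicate 3 came back to the level of the stroke groups and not above it. Hspb1 was at 63.5, 53.9 and 271 CPM in rt-PA+Acu (754, 618 and 3634 counts), against 230 to 263 CPM in rt-PA. The difference was -0.92 ± 0.57 (adjusted p = 0.244) with all libraries and -2.06 ± 0.13 (adjusted p = 0.000423) without replicate 3. Bag3 was at 12.1, 9.51 and 48.8 CPM, against 40.1 to 52.9 CPM in rt-PA, with differences of -0.98 ± 0.56 (adjusted p = 0.211) and -2.10 ± 0.19 (adjusted p = 0.000769). Hspa9 at 325, 295 and 521 CPM, Hspb8 at 33.1, 25.3 and 54.9 CPM, Hspa2 at 20.1, 30.7 and 54.3 CPM and Dnajc25 at 3.29, 3.05 and 7.54 CPM were likewise nearer to the rt-PA libraries in replicate 3. Hspa9 fell by 0.82 ± 0.12 without replicate 3 (adjusted p = 0.00314), against 0.52 ± 0.22 with it (adjusted p = 0.102). The summed neuronal markers of replicate 3 (4147 CPM) lay below those of replicates 1 and 2 (6004 and 6242 CPM). Its summed oligodendrocyte markers (2861 CPM) also lay below theirs (18329 and 7555 CPM). Its astrocyte sum was the highest of the 12 libraries (6522 CPM), and its monocyte and macrophage sum (42.0 CPM) lay below Sham. The astrocyte sum need not stand for each gene, since from Sham to Model it rose while 4 of its 5 genes were called lower. The part of these markers in its chaperone values was not tested.

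Replicate 3 was the highest of 12 libraries in 16 of 70 members (22.9%), beside 7.7% of 13298 genes. On the list of HSF1 targets it was highest in 11 of 14 (78.6%) and above the mean of replicates 1 and 2 in all 14, and on the ER list it was highest in 0 of 8. The summed level of the HSF1 list was 15626 CPM in replicate 3, 8899 and 8759 CPM in replicates 1 and 2, 8716 to 10010 CPM in the Model and rt-PA libraries, and 6666 to 6939 CPM in Sham. Of 70 members, 10 (14.3%) were over 2-fold above the mean of replicates 1 and 2, beside 5.32% of genes. Outside the rule, 6 of 34 cochaperones were highest in this library: the HSP90 partners Stip1, Ahsa1, Fkbp4, Chordc1 and Cacybp, and Cct6a. Since the list was chosen with this library's values known, these counts are a description.

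Of the 16 members highest in replicate 3, 14 had a promoter window, and 7 of these held no heat shock element. All 5 members with an element of 3 units were highest in replicate 3, at 1.47 to 3.68 times the mean of the other rt-PA+Acu libraries. The 11 with an element of 2 units only were at 0.814 to 4.62 times this mean (median 1.68), with Hspb1 and Bag3 at the upper end. Of these 11, replicate 3 was the highest of the 12 libraries in 2 (Dnajb1 and, all but level with replicate 1, Hspa4l), and Hspb1 and Bag3 were not among them. Hspd1 and Hspe1 share their element, so the 5 are not independent. The 3 with an ER stress element were at 1.06 to 1.22 times, and the 38 with neither motif at 0.404 to 2.38 times (median 1.08). A further 13 had no window in the table used (0.798 to 2.13 times, median 1.02).

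**Figure D4:**
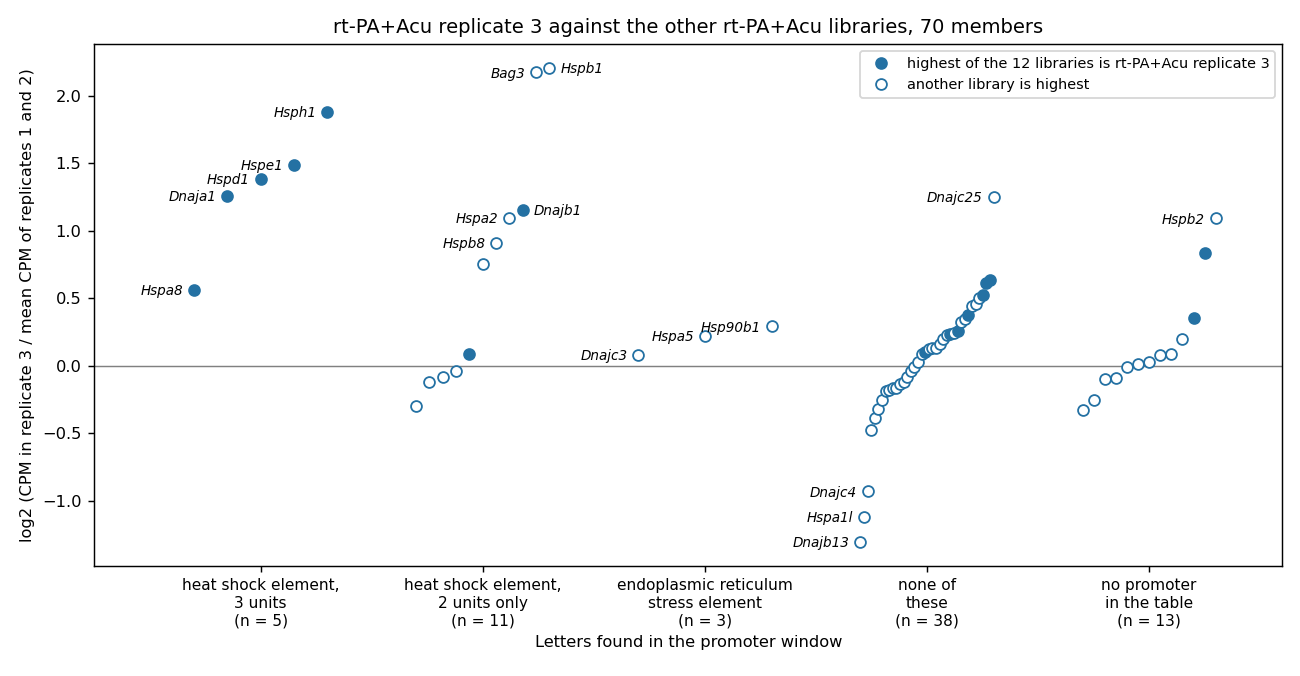
Each point is 1 of 70 members, placed by the motif letters in its promoter window, and the vertical axis is the log2 ratio of its CPM in rt-PA+Acu replicate 3 to the mean of replicates 1 and 2. Filled points are members for which replicate 3 was the highest of the 12 libraries, which includes all 5 with a heat shock element of 3 units and none of the 3 with an ER stress element.

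rt-PA+Acu vs Sham asked which differences from uninjured cortex were present under both treatments. Hspb1 and Hspa4l were higher and Dnajb5, a J-domain gene expressed in neurons, was lower, and 67 of 70 members were not called. These 2 higher calls stood beside 1.7% of 12775 genes, the 1 lower call beside 3.4% of genes, and the 1 DEG (Hspb1) beside 2.06% of genes. Hspb1 in replicates 1 and 2 was 9.03 times the Sham mean and in replicate 3 it was 41.7 times (log2 fold change 4.32 ± 0.68, adjusted p = 0.0145, and 3.16 ± 0.22, adjusted p = 0.0015, without replicate 3). All 3 libraries were thus far above Sham, at whichever level. Hspa4l was at 162, 169 and 181 CPM in Sham and 250, 222 and 250 CPM in rt-PA+Acu (log2 fold change 0.49 ± 0.10, adjusted p = 0.0334), while Model and rt-PA libraries stayed at 148 to 199 CPM. Dnajb5 was at 186, 173 and 172 CPM in Sham and 111, 118 and 134 CPM in rt-PA+Acu (log2 fold change -0.55 ± 0.11, adjusted p = 0.0288). Each of these 3 calls was lost when any 1 Sham library was left out.

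Against Sham, 2 of 14 HSF1 targets and 0 of 8 ER chaperones were called, and a difference between the lists was not tested. Of all genes, 1.7% were called higher and 3.4% lower. All 14 HSF1 targets had a positive log2 fold change against Sham, with a median of 0.65, while the 8 ER chaperones had a median of 0.04 with 4 positive and 4 negative, beside 0.02 over all genes tested. Hsp90aa1, at 2381, 2174 and 4056 CPM against 1524 to 1602 CPM, and Hsph1 were above Sham in every rt-PA+Acu library, and both were called once replicate 3, with its large spread, was left out (0.54 ± 0.09, adjusted p = 0.0185, and 0.53 ± 0.10, adjusted p = 0.0225). Dnajc16 was the third call gained, and 5 members were then higher and 1 lower. Without replicate 3 the HSF1 list had a median of 0.32, with 12 positive and 2 negative. Hspa5, Dnajb9, Dnajb11 and Dnajc3 lay within 0.16 of Sham on the log2 scale with all libraries, and none was called. The whole ER list ran from -0.22 (Dnajc1) to 0.30 (Dnajc10). Without replicate 3 Hspa5 was at -0.25 and was not called.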

How the data were processed

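RNA of 12 cortex samples was grouped by the deposited labels into 4 groups of 3. The authors aligned paired reads to mRatBN7.2 with STAR 2.7.10a, and their processing notes also name Salmon 1.9.0 and featureCounts 2.0.1. The deposited table holds raw read counts by gene symbol as whole numbers, not normalized and with no replicates pooled. How estimates became whole numbers, and whether molecular identifiers were used, is not given in the sources used here, so floors cover counting error only. The sample titles give a group and a replicate number, and each sample was taken to be a separate rat.

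Tests were run with edgeR 4.0.16 under R 4.3.3 (TMM, filterByExpr, quasi-likelihood test, Benjamini-Hochberg adjustment over all genes tested), each comparison on its own 6 libraries. Called means an adjusted p under 0.05, and a DEG also has an absolute log2 fold change over 1. The test was checked on simulated data. Alternatives were DESeq2 1.42.0, RLE factors, library size alone, at least 1 count in all, 1 fit over 12 libraries, at least 10 counts in each library, a replicate block, the DEG threshold, and each library left out. Replicates were compared by chi-square over genes with at least 10 counts, and none was a duplicate.

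Members and lists were chosen with earlier results of these data known. Full values were given for every member that was a DEG in Model vs Sham or rt-PA+Acu vs rt-PA and for Hsf1, Hsf2, Hspa8, Hsp90ab1, Hspa5, Hsp90b1, Hspd1 and Hspe1, and other members were named after their values were seen. Promoters were matched by symbol, and GRCr8 coordinates were not set against the mRatBN7.2 counts. Flt1, the red blood cell markers and 15 members' promoters were not analysed here. Choroid plexus markers, 4 genes, summed to 0.216 to 1.68 CPM, muscle markers, 5 genes, to 33.7 to 133 CPM, and neutrophil markers, 5 genes, to 3.66 to 78.7 CPM. Plots used Python 3.11.15 with matplotlib 3.10.9.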

Additional observations from a re-analysis of the deposited data

How the results depend on the processing

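Of 780 alternative values of the 20 genes with full values, 728 kept direction and side of the threshold, 22 fell short of it, 17 passed it and 13 changed sign. In Model vs Sham the counts of members stayed within 1.5 times except at over 2-fold (9 higher, 1 lower), and leaving out 1 library gave 24 to 33 higher and 6 to 10 lower. For rt-PA vs Model every alternative called 0 members. For acupuncture (rt-PA+Acu against rt-PA), over 2-fold left 2 higher and 1 lower, 1 fit over 12 libraries called 14 lower, and leaving out 1 library gave 4 to 8 higher and 5 to 22 lower, the last without rt-PA+Acu replicate 3. Against Sham, higher calls of rt-PA+Acu were 9 with DESeq2, 5 in 1 fit over 12 libraries, 1 at over 2-fold and 0 to 5 with 1 library left out. Lower calls were 0 with library size alone, 0 in 1 fit over 12 libraries, 0 at over 2-fold, and 0 to 1 with 1 library left out. The cause of these changes was not tested.

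Where leaving out 1 library changed a sign, the log2 fold changes ranged as follows. Hsf1, near 0 throughout, ran from -0.20 to 0.016 in Model vs Sham and from -0.068 to 0.086 in rt-PA+Acu against rt-PA, where library size alone gave -0.092. In the same comparison Hsph1 ran from -0.31 to 0.94, Hspd1 from -0.43 to 0.42 and Hspe1 from -0.35 to 0.59, each negative only without rt-PA+Acu replicate 3. Against Sham, rt-PA+Acu gave -0.35 to 0.26 for Dnajb13, -0.50 to 1.01 for Bag3, -0.22 to 0.57 for Dnajc25 and -0.10 to 0.16 for Hsf2, with the sign again turned by leaving out replicate 3.

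No pairing by replicate number was assumed, and 3 libraries a group cannot decide it. Correlations of same-numbered deviations were 0.12, 0.07 and 0.06 for Model vs Sham, where each library was closest to its own number. For rt-PA vs Model they were 0.20, -0.02 and -0.11. They were -0.14, 0.15 and -0.03 for rt-PA+Acu against rt-PA, and -0.13, -0.09 and -0.15 for rt-PA+Acu against Sham. With the replicate block, 27 members were higher and 8 lower for Model vs Sham, 0 were called for rt-PA vs Model, 6 were higher and 7 lower for rt-PA+Acu against rt-PA, and 1 was higher and 0 lower for rt-PA+Acu against Sham. With 3 libraries a group, low genes such as Dnajb13, Dnajc25 and Hspb2 had larger standard errors than most members.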

Other observations

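Counted over the 70 members, the highest library was Model replicate 1 in 14 members, rt-PA+Acu replicate 2 in 13 and rt-PA+Acu replicate 3 in 16, while it was a Sham library in 5. Over all genes these libraries were highest in 13.2%, 9.72% and 7.7%, and the 3 Sham libraries in 7.27% to 9.66% each. Dnajc6, which replicate 2 of rt-PA+Acu led, was at 666, 912 and 604 CPM in this group and at 512 to 552 CPM in Sham (log2 fold change 0.45 ± 0.16, adjusted p = 0.140 in edgeR's quasi-likelihood test). Cryab, the small heat shock gene that the symbol rule leaves out, fell by 1.34 ± 0.31 from rt-PA to rt-PA+Acu (adjusted p = 0.0152), and its difference from Sham was -0.07 ± 0.32 (adjusted p = 0.916).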
